A study of Mus musculus with 6 samples.

Results

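The genes examined were 48 mouse genes known to be imprinted, taken by GENCODE M21 symbol from the raw count tables of satellite cells with and without Hira. All 48 were present among the 55536 genes counted, and 41 of them had enough reads to be tested, out of 22404 tested genes. An imprinted gene is transcribed mainly from the copy inherited from the mother or mainly from the copy inherited from the father. The choice is set by DNA methylation laid down in the egg or the sperm, which is kept at an imprinting control region through later cell divisions, and whole clusters of genes follow such a region. Many imprinted genes act on growth and on progenitor cells, and H19, Igf2 and the Dlk1-Dio3 genes are known for their activity in developing and regenerating muscle. By the parental copy usually reported as active, 25 members were classed as paternally expressed and 13 as maternally expressed. The other 10 were set apart as imprinted only in some tissues, such as brain or placenta, or from a parental copy that depends on tissue or transcript. Being listed in the paternal or maternal class does not show that a gene, such as Cd81, is imprinted in these cells. The reads were not assigned to parental copies, so every value below is the summed output of both.

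RNA came from satellite cells, the muscle stem cells that lie beneath the sheath of the fibre. The 3 control samples were Pax7CreErt2;Hira fl/+ and the 3 cKO samples Pax7CreErt2;Hira fl/fl, all from adult male mice. The sample labels call the controls wild type, and the genotype given here is the one in the study's methods. Both groups carried the Cre, which is driven by the satellite cell gene Pax7 and becomes active under tamoxifen, both were given tamoxifen in the diet, and the controls also carried 1 floxed Hira allele. Muscles were injured with barium chloride. Cells were sorted 5 days later as positive for CD34 and ITGA7 and negative for CD45, TER119 and SCA1, then cultured for 48 h in high serum with basic FGF. Samples are described as independent RNA samples without saying whether each came from a separate mouse, so p-values measure the spread between these samples. RNA from 400 ng per sample was depleted of ribosomal RNA, made into libraries that mark the strand and sequenced as single reads of 75 bases. The reads assigned to genes numbered 47944477 to 63323577 per sample. CPM values are counts scaled to library size, after TMM adjustment of that size, and a gene was called when edgeR's quasi-likelihood test gave a Benjamini-Hochberg adjusted p under 0.05 over all tested genes.

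The targeted gene and the cell type were checked first. Hira had 375, 348 and 341 counts in control and 161, 293 and 272 counts in cKO, a log2 fold change of -0.43 (SE 0.12, edgeR adjusted p = 0.0237). The groups did not overlap, but without control replicate 1 the edgeR adjusted p was 0.104. Of the exonic bases of Hira, 44.7% also belong to another annotated gene on the same strand. The study reports a sharp fall of Hira mRNA by RT-qPCR and no detected HIRA protein in cKO satellite cells. The fall in these counts, to 0.741 of control, was much smaller than the one it gives for RT-qPCR. The cause of that difference was not tested. Myogenic markers were abundant in all samples, at a sum of 9458 to 9573 CPM in control against 8168 to 8789 CPM in cKO over 10 genes, 9 of which were called lower in cKO. Markers of other cells were present in both groups, and part of them were called higher in cKO. The negative gates of the sort are meant to leave out blood cells (CD45, TER119) and SCA1-positive cells such as fibro-adipogenic progenitors and endothelium. All 15 macrophage genes were called higher, and their sum was 146 to 151 CPM in control against 306 to 354 CPM in cKO. Of 15 genes of fibroblasts and fibro-adipogenic progenitors, 9 were called higher and the sum was 1381 to 1462 CPM against 1830 to 1997 CPM, although Clec3b and Lum, 2 markers of that list, had too few counts to be tested. The endothelial list had 5 of 10 genes called higher, the smooth muscle and pericyte list 7 of 9 called higher and 1 lower, and the neuronal and glial list 1 of 10 called higher. Ptprc, the gene of CD45, had 72, 94 and 94 counts in control and 126, 169 and 167 counts in cKO and was called higher. Ly6a, a gene of SCA1, had 178, 198 and 175 counts against 183, 200 and 211 counts and was not called. In bulk RNA, more cells of a type, more RNA per cell and expression of these genes by the myogenic cells cannot be told apart. The study reports that Pdgfra and Cdh5 rose in Hira-KO C2C12 myoblasts. For cKO satellite cells it reports a rise of endothelial and other alternative lineage genes, by RNA-seq and by RT-qPCR. Pdgfra and Cdh5 were among the genes it measured there by RT-qPCR. The cKO satellite cells also stained for VE-Cadherin, the product of Cdh5.

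Of the 41 imprinted genes tested, 11 were called higher in cKO and 8 were called lower. The lower calls were 4 without control replicate 3, 5 without control replicate 1, control replicate 2 or cKO replicate 3, and 5 with total count scaling, whereas the higher calls were 9 to 11 in all settings tried. Over all tested genes 9.38% were called higher and 6.46% were called lower. The median log2 fold change of the 41 genes was -0.003, beside -0.001 for all tested genes, and it was 0.02 for both when libraries were scaled by total counts alone. The groups did not overlap in CPM for 14 members that were higher in cKO and 11 that were lower, and 31.8% of all tested genes had groups that did not overlap. The large changes came from few loci. A log2 change of more than 1 was seen for Dlk1, Meg3, Rtl1, Rian and Mirg of the Dlk1-Dio3 cluster and for Nnat on chromosome 2, and the largest fall was that of Zdbf2. The remaining called genes changed by less than 0.5 on the log2 scale in either direction.

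**Figure D1:**
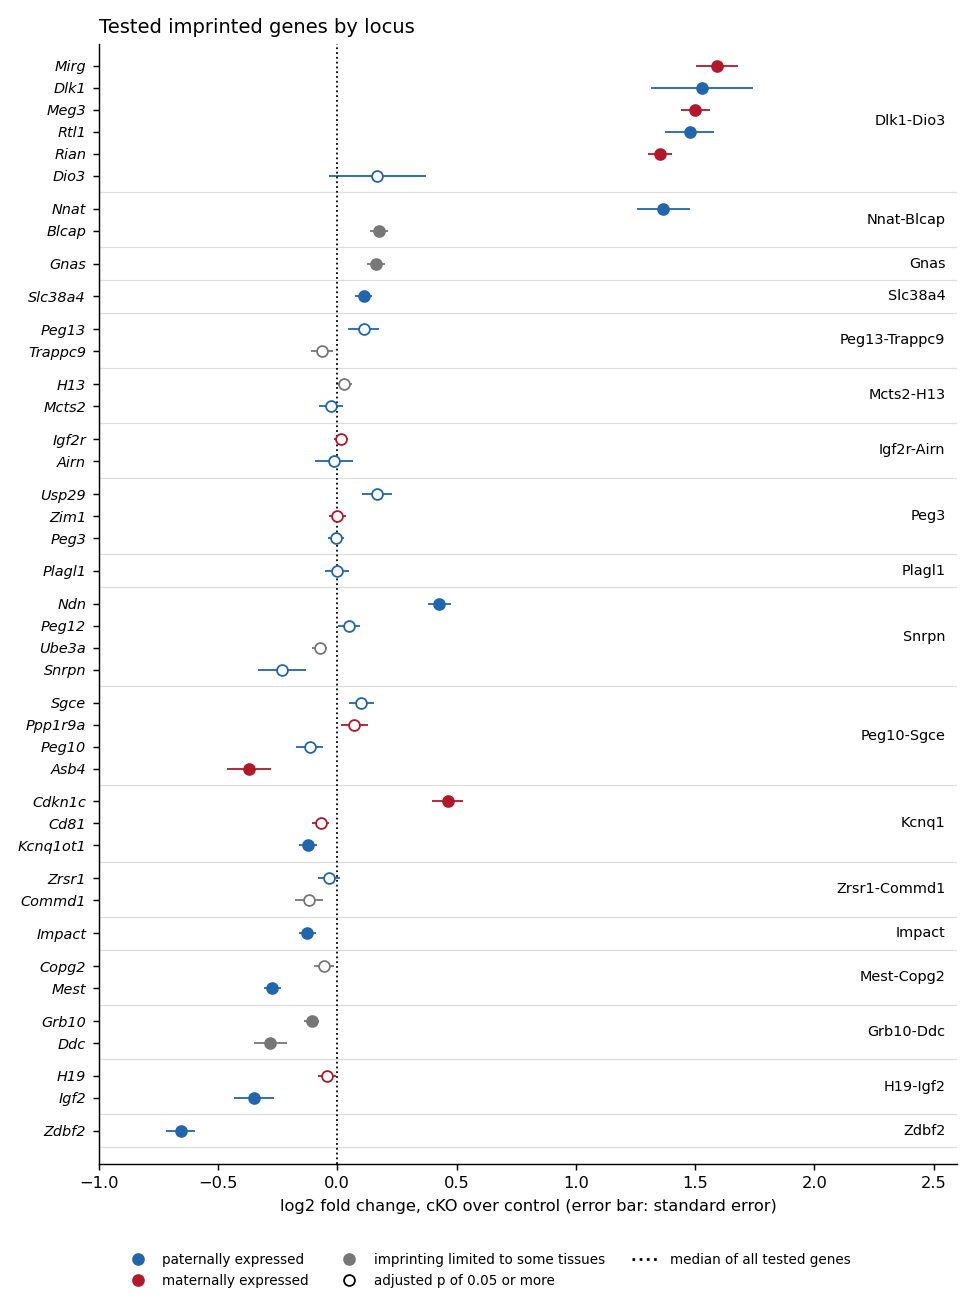
Log2 fold change of cKO over control, with its standard error, for the 41 tested imprinted genes, grouped by locus and ordered by the median of the locus. Filled points passed an adjusted p of 0.05 and open points did not. Of the 6 Dlk1-Dio3 genes 5 lie between 1.35 and 1.59, Nnat lies at 1.37, and all other members lie between -0.66 and 0.46.

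Both parental classes held genes called higher and genes called lower. Of 22 tested paternally expressed genes, 5 were called higher and 5 lower, with a median log2 fold change of -0.004 that became 0.02 with total count scaling. Of 10 tested maternally expressed genes, 4 were called higher and 1 lower, with a median of 0.04. Within the Dlk1-Dio3 cluster genes listed in both classes rose, Dlk1 and Rtl1 of the paternal class and Meg3, Rian and Mirg of the maternal class. Reads of Rtl1 can be told from RNA of the opposite strand only if the counting used strand, which is not known. Outside that cluster the counts were 3 higher and 5 lower of 19 paternal genes (median -0.01) and 1 higher and 1 lower of 7 maternal genes (median -0.0004). Of the 9 tested genes with imprinting limited to some tissues, or variable by tissue or transcript, 2 were called higher and 2 lower. Their median log2 fold change was -0.07. Summed over all members of a class, with no test, paternal genes gave 2138, 2093 and 2097 CPM in control against 2062, 2031 and 1999 CPM in cKO. The cKO samples were thus all below the controls for that class. Maternal genes gave 8983, 8470 and 8513 CPM against 8159, 8526 and 8795 CPM, which overlapped. Without H19, which makes up most of the maternal sum, the values were 997.7, 1011 and 997.7 CPM against 1084, 1046 and 1050 CPM, all higher in cKO. That sum holds the cluster genes Meg3 (mean of 12.23 CPM in control, 34.55 in cKO), Rian (22.63, 57.79) and Mirg (3.981, 11.97). The paternal sum holds Zdbf2 (105.3, 66.74) and Mest (145.7, 120.7). The shifts of both sums rest largely on these genes and do not show a shift of a whole class.

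The 41 tested genes differed widely in abundance. To compare genes with each other, mean CPM was divided by the exonic length in kb. H19, a noncoding RNA, stood first at 3111 CPM per kb in control and 3022 CPM per kb in cKO. Next came Cd81 (132 CPM per kb in control), which encodes a tetraspanin, Peg3 (97.4), Grb10 (93.4), Igf2r (53.7) and Mest (36.9). The genes that rose most were all in the low part of this order, with control levels of 1.24 CPM per kb for Rian, 0.963 for Nnat, 0.676 for Meg3, 0.546 for Mirg, 0.278 for Rtl1 and 0.0832 for Dlk1. After the rise they were still below Mest and Peg3, with 3.17 CPM per kb for Rian and 0.24 for Dlk1 in cKO. The summed CPM of all 48 members hardly moved, at 12140 ± 310 CPM in control against 11830 ± 269 in cKO (SD, n = 3 each). H19 alone gave 7653 ± 289 CPM of the control sum and 7433 ± 337 CPM of the cKO sum, so the total mostly describes that gene.

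**Figure D2:**
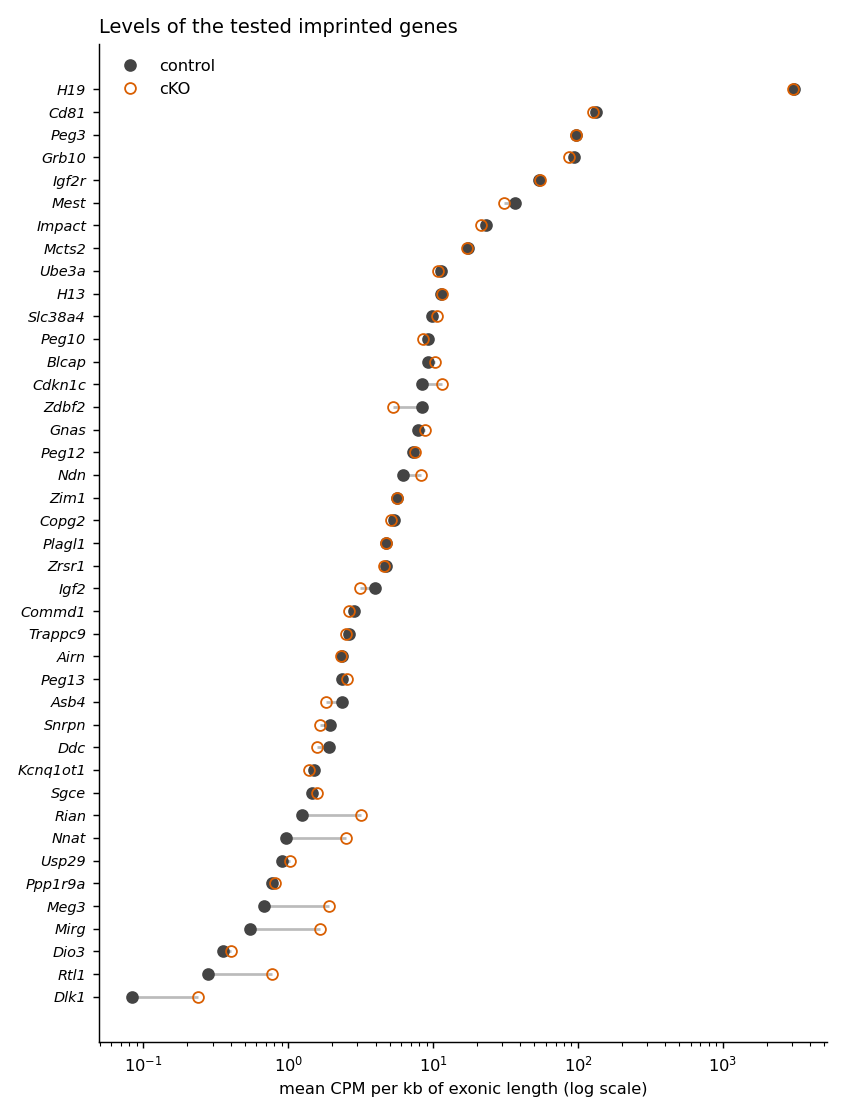
Mean CPM per kb of exonic length for the 41 tested imprinted genes in control (filled) and cKO (open), on a log scale. H19 is highest at 3111 in control, and the genes with the widest gaps between groups (Rian, Nnat, Meg3, Mirg, Rtl1 and Dlk1) lie at 1.24 or less in control.

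The Dlk1-Dio3 cluster lies on chromosome 12 (chr12:109452823-110281097 of mm10). It holds 3 protein genes read from the paternal copy, Dlk1, a transmembrane relative of the Notch ligands, Rtl1, derived from a retrotransposon, and Dio3, an enzyme that inactivates thyroid hormone. From the maternal copy it gives long noncoding RNAs, namely Meg3, Rian, which hosts small nucleolar RNAs, and Mirg, which hosts microRNAs. Promoter windows, from 250 bases before to 50 bases after an annotated start, are shown for the first gene of each parental class and for Nnat and Zdbf2, the genes with the largest changes elsewhere. They are RefSeq sequences on GRCm38.p6, read 5′ to 3′ on the plus strand, and capitals mark CpG, the pair of bases that carries the methylation of imprints.
Dlk1, chr12:109452573-109452872: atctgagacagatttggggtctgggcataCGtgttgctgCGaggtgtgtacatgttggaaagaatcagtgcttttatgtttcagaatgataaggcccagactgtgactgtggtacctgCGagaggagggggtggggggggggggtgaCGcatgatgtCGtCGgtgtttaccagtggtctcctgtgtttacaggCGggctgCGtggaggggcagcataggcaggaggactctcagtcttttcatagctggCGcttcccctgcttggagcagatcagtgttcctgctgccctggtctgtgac
Meg3, chr12:109540746-109541045: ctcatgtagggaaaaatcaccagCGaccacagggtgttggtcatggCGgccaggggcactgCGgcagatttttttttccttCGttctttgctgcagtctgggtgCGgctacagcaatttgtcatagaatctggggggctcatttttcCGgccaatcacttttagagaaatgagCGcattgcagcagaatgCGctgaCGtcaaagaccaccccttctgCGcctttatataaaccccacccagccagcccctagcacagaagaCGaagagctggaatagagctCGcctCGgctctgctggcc
Nnat, chr2:157559828-157560127: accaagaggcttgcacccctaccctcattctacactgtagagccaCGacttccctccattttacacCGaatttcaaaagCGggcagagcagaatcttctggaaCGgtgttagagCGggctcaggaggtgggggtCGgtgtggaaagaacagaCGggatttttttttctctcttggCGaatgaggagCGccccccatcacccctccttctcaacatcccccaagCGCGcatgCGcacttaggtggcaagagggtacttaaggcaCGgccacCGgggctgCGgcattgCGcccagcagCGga
Zdbf2, chr1:63273019-63273318: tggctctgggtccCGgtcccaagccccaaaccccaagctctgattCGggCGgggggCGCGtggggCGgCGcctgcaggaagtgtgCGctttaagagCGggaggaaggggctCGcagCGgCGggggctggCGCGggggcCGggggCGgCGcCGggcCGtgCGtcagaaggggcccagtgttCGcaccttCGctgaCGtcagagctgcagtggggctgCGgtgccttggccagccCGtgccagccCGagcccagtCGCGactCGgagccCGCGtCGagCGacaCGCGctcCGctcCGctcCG
The windows held 9 CpG for Dlk1, 13 for Meg3, 17 for Nnat and 38 for Zdbf2, where the median over all 32851 promoter windows of the table was 7. The median over the 58 windows of the 38 members found in the table was 13. The hexamer TGCCGC, which the imprint-keeping zinc finger protein ZFP57 recognises when it is methylated, was searched on both strands. It occurred in 24.1% of the members' windows and in 11.6% of all windows. The members' share counts a window common to Snrpn and Snurf for both genes, and the Mest windows with the hexamer overlap. The hexamer itself holds a CpG, and the members' windows had the higher median of CpG. The part of CpG content in the difference was not tested. Meg3 and Nnat held 1 such hexamer each in the windows shown, and Dlk1 and Zdbf2 held none. A second window of Zdbf2, at chr1:63200108-63200407, held 3. These are matches of letters in a short window and say nothing of binding. Imprinting control regions outside the promoter windows were not examined, and H19 had no window.

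Of the cluster genes listed as paternally expressed, Dlk1 and Rtl1 rose with the maternal ones, and Dio3 was not called. Dlk1 (ENSMUSG00000040856) had 21, 30 and 34 counts in control and 51, 95 and 80 counts in cKO, that is 0.471 ± 0.0924 CPM against 1.36 ± 0.269 CPM (SD, n = 3 each). Every cKO sample was above every control sample, with a log2 fold change of 1.53 (SE 0.21, edgeR adjusted p = 0.000119). Rtl1 had 108, 112 and 97 counts in control and 234, 313 and 262 counts in cKO. Its level was 1.77 ± 0.167 CPM against 4.92 ± 0.271 CPM (SD, n = 3 each), without overlap (log2 fold change 1.48, SE 0.10, edgeR adjusted p = 9.07e-08). At the far end of the cluster, Dio3 had 42, 46 and 40 counts in control and 49, 41 and 41 counts in cKO, with overlapping groups. For Dio3 the log2 fold change was 0.17 (SE 0.20, edgeR adjusted p = 0.669), with a 95% interval from -0.23 to 0.57 that lies below the values of the other cluster genes.

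The noncoding genes of the cluster were upregulated to a similar extent. Meg3 (ENSMUSG00000021268) had 719, 708 and 766 counts in control and 1557, 2240 and 1906 counts in cKO. Its level was 12.2 ± 0.837 CPM in control against 34.5 ± 2.53 CPM in cKO (SD, n = 3 each). The cKO samples thus lay far above the spread of the controls, with a log2 fold change of 1.50 (SE 0.06, edgeR adjusted p = 5.56e-10). Rian had 1291, 1388 and 1383 counts in control and 2740, 3752 and 3026 counts in cKO (log2 fold change 1.35, SE 0.05, edgeR adjusted p = 2.44e-10). Mirg had 235, 244 and 235 counts in control and 575, 803 and 594 counts in cKO (log2 fold change 1.59, SE 0.09, edgeR adjusted p = 8.38e-09). For all 3 the lowest cKO sample exceeded the highest control sample by more than the range of the controls. Summed over the 6 members, the cluster rose from 41.8 ± 1.43 CPM to 111 ± 8.08 CPM. The log2 ratio of Meg3 to Dlk1 counts within a sample, which no scaling can alter, was 4.72 ± 0.331 in control and 4.69 ± 0.211 in cKO (SD, n = 3 each), so the ratio of this pair differed by less than the spread of the samples.

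**Figure D3:**
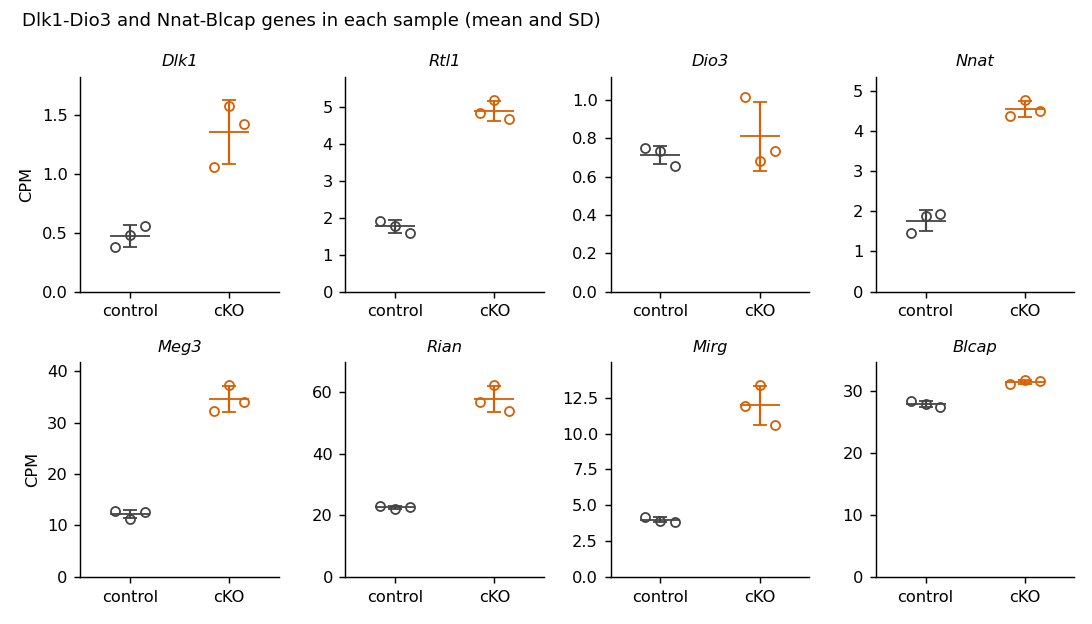
CPM of the 6 Dlk1-Dio3 genes and of Nnat and Blcap in each of the 3 control and 3 cKO samples, with the mean and SD, on linear axes from 0. The groups are apart for all genes shown except Dio3, where cKO samples at 0.683 to 1.02 CPM overlap controls at 0.658 to 0.749 CPM.

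Other transcripts between Dlk1 and Dio3 were read for the same interval. The noncoding genes Gm26945 (log2 fold change 1.40, SE 0.18) and Gm37899 (1.40, SE 0.15) were called higher, and so was B830012L14Rik, at 5, 8 and 3 counts in control and 13, 29 and 29 counts in cKO (log2 fold change 2.24, SE 0.40, edgeR adjusted p = 0.00108). Gm3379, a processed pseudogene in the interval, had 6935 to 8715 counts per sample and a log2 fold change of -0.02 (SE 0.03, edgeR adjusted p = 0.824). The 67 microRNA genes of the interval summed to 39, 35 and 38 counts in control and to 75, 120 and 101 counts in cKO, and its 23 small nucleolar RNA genes to 15, 14 and 11 counts and to 35, 40 and 32 counts. None of these small RNA genes passed the filter to be tested. Reads of 75 bases are longer than any mature microRNA in the table (18 to 26 bases), so such reads come from longer transcripts. Outside the cluster, 12 genes within 500 kb were tested, with a median log2 fold change of -0.06. By edgeR 0 of them were called higher and 1, Wdr20, was called lower, which is also what DESeq2 and an unadjusted p under 0.05 gave.

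Opposite to the exon of Rtl1 lie 6 microRNA hairpins on the other strand, and 14 lie inside Mirg on the same strand. Mature microRNAs of the hairpins opposite to Rtl1 are complementary to its transcript by position. They are shown with 2 from Mirg, because reads of Rtl1 and of the transcript that carries them can be told apart only by strand. Whether the counting used strand is not known, so the Rtl1 counts may hold reads of that transcript. Capitals mark the seed, bases 2 to 8. The sequences are from RefSeq, and 1 mature form is given for each hairpin.
miR-431-5p, chr12:109590459-109590479: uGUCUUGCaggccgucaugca
miR-433-3p, chr12:109591781-109591802: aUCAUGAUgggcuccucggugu
miR-127-3p, chr12:109592888-109592909: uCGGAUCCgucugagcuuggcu
miR-434-3p, chr12:109594565-109594586: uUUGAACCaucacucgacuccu
miR-432, chr12:109595006-109595028: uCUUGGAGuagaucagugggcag
miR-136-5p, chr12:109595331-109595352: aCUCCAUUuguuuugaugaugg
miR-134-5p, chr12:109734145-109734166: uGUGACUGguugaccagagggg
miR-410-3p, chr12:109743764-109743784: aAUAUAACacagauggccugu
Each of the 8 has a seed of its own. Among all 114 mature sequences of the interval there were 104 different seeds, and no seed was shared by more than 2. Of the exonic bases of Rtl1, 8.12% are also annotated to genes on the other strand, these hairpins among them.

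Nnat, on chromosome 2 (chr2:157560078-157562522), encodes a small membrane protein of the endoplasmic reticulum and lies within an intron of Blcap. It had 82, 118 and 118 counts in control and 211, 287 and 252 counts in cKO. This is 1.76 ± 0.260 CPM in control against 4.55 ± 0.205 CPM in cKO (SD, n = 3 each), without overlap. The log2 fold change of Nnat was 1.37 (SE 0.11, edgeR adjusted p = 5.17e-07). Blcap, its host gene, moved in the same direction by far less, from 27.9 ± 0.479 CPM to 31.4 ± 0.331 CPM (log2 fold change 0.17, SE 0.04, edgeR adjusted p = 0.00566). All cKO samples of Blcap, at 31.0 to 31.6 CPM, were above the controls at 27.4 to 28.3 CPM.

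The rise of these genes ran beside that of the marker genes named above. Median log2 fold changes were 1.49 for the 6 Dlk1-Dio3 genes, 1.06 for macrophage, 0.70 for fibroblast, 0.41 for endothelial, 0.28 for smooth muscle and pericyte, 0.32 for neuronal and glial and -0.18 for myogenic markers. Within the fibroblast list the values ran from -0.13 for Dpep1, which was not called, through 0.17 (Gsn), 0.21 (Col3a1) and 0.26 (Col1a2) to 1.15 (Pdgfra), 1.29 (Col1a1) and 1.37 (Mfap5). Among imprinted genes, the median was -0.03 for the 35 tested members outside the cluster. The part of other cell types, or of myogenic cells expressing such markers, in the rise of the Dlk1-Dio3 genes and Nnat was not tested.

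**Figure D4:**
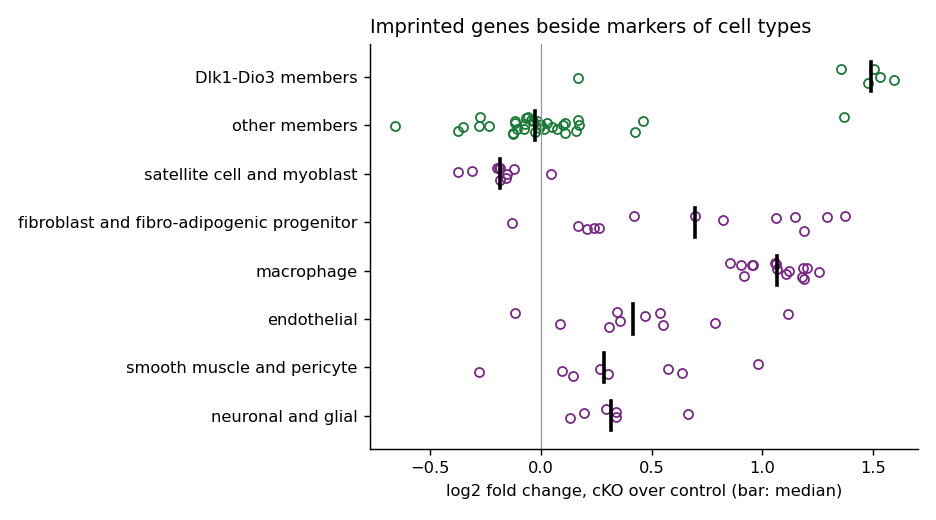
Log2 fold change of cKO over control for single genes (circles) and their median (bar) in the Dlk1-Dio3 cluster, in the other tested imprinted genes and in 6 lists of cell type markers. The cluster has a median of 1.49, the macrophage list 1.06 and the fibroblast list 0.70.

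Zdbf2 on chromosome 1 (chr1:63273265-63314576), a zinc finger gene read from the paternal copy, fell furthest. It had 6431, 6326 and 6112 counts in control and 2867, 4142 and 4018 counts in cKO. The level fell from 105 ± 8.15 CPM to 66.7 ± 6.44 CPM (SD, n = 3 each), and the highest cKO sample, at 71.8 CPM, was well below the lowest control, at 100.5 CPM. Its log2 fold change was -0.66 (SE 0.06, edgeR adjusted p = 2.34e-06). Of 11 tested neighbours within 500 kb, edgeR and DESeq2 both called 1 higher and 0 lower, and 1 fell with an unadjusted p under 0.05. The neighbour that rose was Nrp2, named after its value was seen.

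At the H19-Igf2 locus of chromosome 7 (chr7:142575529-142666816), H19 and Igf2 gave different outcomes. H19, read from the maternal copy, took 7985, 7459 and 7515 CPM in control and 7075, 7481 and 7745 CPM in cKO. These groups overlapped (log2 fold change -0.04, SE 0.04, edgeR adjusted p = 0.545). Igf2, a growth factor read from the paternal copy, had 1449, 1327 and 1306 counts in control and 740, 1168 and 1042 counts in cKO. It fell from 22.8 ± 2.63 CPM to 17.8 ± 2.16 CPM (SD, n = 3 each), with every cKO sample below every control (log2 fold change -0.35, SE 0.08, edgeR adjusted p = 0.00914). The log2 ratio of H19 to Igf2 counts within a sample was 8.27 to 8.46 in control and 8.59 to 8.85 in cKO. Igf2 counts are uncertain, as 62.8% of its exonic bases are also annotated to Gm49394 on the same strand, a gene listed at 0 counts in all 6 samples. H19 carries the hairpin of miR-675 in an exon, whose 5p form at chr7:142577112-142577133 on the minus strand is shown because the abundant H19 transcript is its source.
miR-675-5p: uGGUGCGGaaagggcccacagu
The receptor IGF2R, which removes IGF2 by taking it to lysosomes, is encoded by the maternally expressed Igf2r. It was at 500 ± 5.21 CPM in control against 505 ± 7.04 CPM in cKO (log2 fold change 0.015, SE 0.03, edgeR adjusted p = 0.806). Airn, the paternal RNA antisense to Igf2r, was at 8.48 ± 0.502 CPM and 8.37 ± 0.913 CPM (log2 fold change -0.01, SE 0.08, edgeR adjusted p = 0.938).

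At the Kcnq1 locus, also on chromosome 7 (chr7:143052739-143503150), the 2 called genes moved in opposite directions. Cdkn1c encodes p57, an inhibitor of cyclin-dependent kinases, and is read from the maternal copy. It had 993, 1011 and 1041 counts in control and 1236, 1267 and 1321 counts in cKO, and rose from 17.0 ± 0.816 CPM to 23.4 ± 2.28 CPM (SD, n = 3 each). Its groups were apart, with a log2 fold change of 0.46 (SE 0.06, edgeR adjusted p = 0.00012). On the opposite strand, 30.6% of its exonic bases belong to Gm44732, which had 0 counts in all 6 samples. As the strand setting of the counting is not known, these counts cannot show whether Gm44732 was transcribed. The Cdkn1c counts are uncertain over those bases. Kcnq1ot1, the long paternal RNA that is linked to silencing of the cluster, was at 140 ± 2.56 CPM in control against 128 ± 5.81 CPM in cKO (log2 fold change -0.12, SE 0.04, edgeR adjusted p = 0.0291), with 7709, 8729 and 8669 counts in control and 5862, 7953 and 7320 counts in cKO. That call was lost under total count scaling (adjusted p = 0.0875) and when any sample except cKO replicate 2 was left out. Cd81 was at 380 ± 5.56 CPM and 362 ± 17.6 CPM (log2 fold change -0.07, SE 0.04, edgeR adjusted p = 0.222). The other 3 genes of the locus were near 0, with 4 to 16 counts per sample for the potassium channel gene Kcnq1, 0 to 4 for the transporter gene Slc22a18 and 0 to 1 for Phlda2, known as a brake on placental growth.

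At the Peg3 locus on chromosome 7 (chr7:6671269-6967219) none of 3 genes was called. Peg3, a zinc finger gene read from the paternal copy, was abundant, at 1297 ± 13.3 CPM in control against 1293 ± 43.9 CPM in cKO (log2 fold change -0.006, SE 0.03, edgeR adjusted p = 0.941). Its 95% interval reached from -0.07 to 0.06. The maternal Zim1 was at 45.5 ± 0.426 CPM and 45.5 ± 1.21 CPM (log2 fold change -0.0004, SE 0.04). DESeq2 also called none of the 3, and 1, Usp29, had an unadjusted p under 0.05. Usp29, a ubiquitin-specific peptidase gene that starts beside Peg3 on the other strand, did not pass the test (log2 fold change 0.17, SE 0.06, edgeR adjusted p = 0.0924) although its groups did not overlap. Of 18 tested neighbours of the locus within 500 kb, 0 were called in either direction by edgeR or DESeq2, and 0 had an unadjusted p under 0.05.

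In the Snrpn region, known from Prader-Willi and Angelman syndromes (chr7:59228750-62464510), only Ndn was called among the 4 tested members. Ndn, a MAGE family gene known as a growth suppressor in postmitotic cells, had 1192, 1472 and 1428 counts in control and 1414, 1904 and 1716 counts in cKO. It rose from 22.7 ± 1.27 CPM to 30.6 ± 1.18 CPM (SD, n = 3 each) with groups apart (log2 fold change 0.43, SE 0.05, edgeR adjusted p = 1.78e-05). Its relative Magel2 had 0 to 2 counts per sample. Snrpn, which encodes a spliceosomal protein, had 228, 242 and 284 counts in control and 182, 224 and 181 counts in cKO, and did not pass the test (log2 fold change -0.23, SE 0.10, edgeR adjusted p = 0.146). Snurf, encoded by the same transcript, was listed at 0 in all samples, and as 100% of its exonic bases also belong to Snrpn or Gm38393 these counts cannot show whether it was transcribed. Gm38393, which shares exons with both, had 418 to 617 counts per sample and a log2 fold change of 0.07 (SE 0.07, edgeR adjusted p = 0.573). The ubiquitin ligase gene Ube3a (-0.07, SE 0.03, edgeR adjusted p = 0.145) and Peg12 (0.05, SE 0.05, edgeR adjusted p = 0.557) were not called.

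Gnas, on chromosome 2 (chr2:174284320-174346744), encodes the stimulatory G protein alpha subunit and several imprinted transcripts from other promoters that the counts merge. It had 5045, 5668 and 5061 counts in control and 4891, 5727 and 5482 counts in cKO. The level rose from 87.8 ± 4.01 CPM to 98.3 ± 3.08 CPM (SD, n = 3 each), with a log2 fold change of 0.16 (SE 0.04, edgeR adjusted p = 0.00903). Without control replicate 3 the adjusted p was 0.0708. Its antisense RNA Nespas, which is not a member, also rose (0.28, SE 0.08, edgeR adjusted p = 0.0331), and 21.96% of the exonic bases of Gnas are annotated to genes on the other strand.

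Modest falls were measured at further loci. Mest, a paternal gene of the alpha/beta hydrolase family on chromosome 6, had 8184, 9067 and 8921 counts in control and 6071, 7311 and 6400 counts in cKO. It fell from 146 ± 1.16 CPM to 121 ± 5.89 CPM (SD, n = 3 each), with groups apart (log2 fold change -0.27, SE 0.04, edgeR adjusted p = 7.67e-05). Its convergent neighbour Copg2, a coat protein gene that shares 17.8% of its exonic bases with Mest on the other strand, was not called (-0.06, SE 0.04, edgeR adjusted p = 0.443). Asb4, a maternal gene at the far end of the Peg10-Sgce locus, fell from 9.20 ± 0.723 CPM to 7.15 ± 1.06 CPM, with 483, 564 and 609 counts in control and 401, 415 and 349 counts in cKO. The log2 fold change of Asb4 was -0.37 (SE 0.09, edgeR adjusted p = 0.012), but the adjusted p was 0.0788 without control replicate 3 and 0.0685 without cKO replicate 3. The retrotransposon-derived Peg10 (-0.12, SE 0.06), the sarcoglycan gene Sgce (0.10, SE 0.05) and Ppp1r9a (0.07, SE 0.06) of that locus were not called, with adjusted p from 0.188 to 0.465 in edgeR's test.

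Both genes of the Grb10-Ddc locus on chromosome 11 were lower. Ddc, which encodes a decarboxylase of monoamine synthesis, had 502, 502 and 528 counts in control and 330, 421 and 404 counts in cKO (8.54 ± 0.495 against 7.02 ± 0.185 CPM, SD, n = 3 each). The log2 fold change of Ddc was -0.28 (SE 0.07, edgeR adjusted p = 0.00973), and the adjusted p was 0.0503 without control replicate 1. Grb10, an adaptor that restrains insulin and IGF receptors, was at 849 ± 7.22 CPM in control against 788 ± 30.5 CPM in cKO. Its 47104, 53464 and 51942 counts in control and 39637, 45941 and 43430 counts in cKO gave a log2 fold change of -0.11 (SE 0.03, edgeR adjusted p = 0.0344). Impact, a paternal gene on chromosome 18 that curbs the amino acid sensor GCN2, had 6721, 7395 and 7207 counts in control and 5425, 6204 and 6189 counts in cKO. It was at 119 ± 1.09 CPM and 109 ± 4.87 CPM (log2 fold change -0.13, SE 0.04, edgeR adjusted p = 0.0233). Slc38a4, an amino acid transporter gene read from the paternal copy, went the other way, with 2347, 2609 and 2565 counts in control and 2170, 2777 and 2484 counts in cKO (41.9 ± 0.309 against 45.2 ± 0.947 CPM, log2 fold change 0.11, SE 0.04, edgeR adjusted p = 0.0471). The calls of Grb10, Impact and Slc38a4 were not stable. That of Slc38a4 was kept in only 1 of 11 alternative fits, that of Grb10 in 4 and that of Impact in 6.

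**Figure D5:**
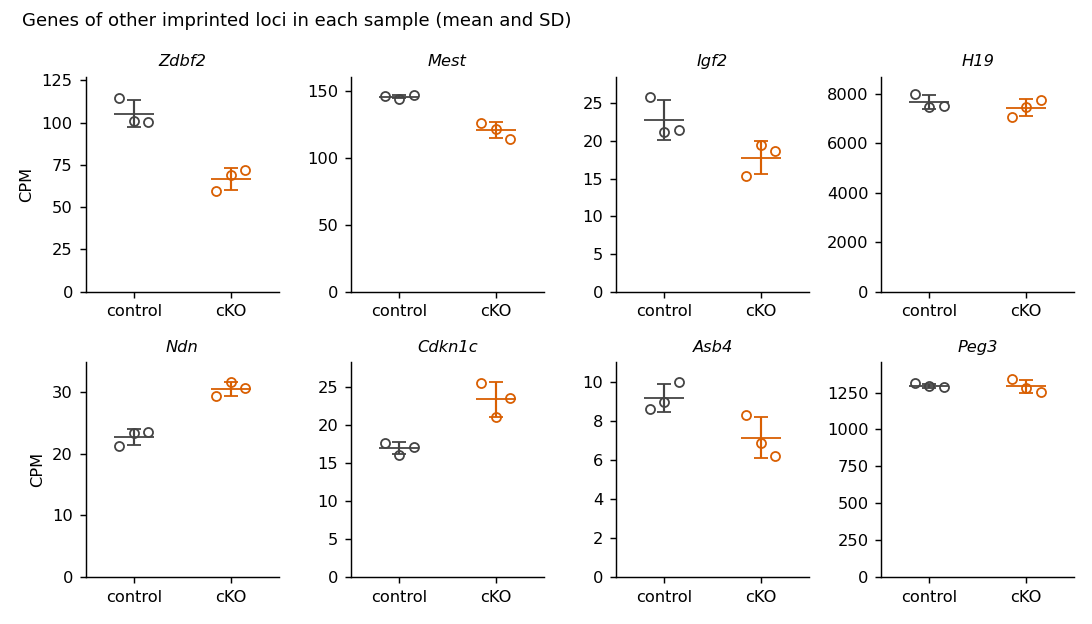
CPM of 8 genes from other imprinted loci in each of the 3 control and 3 cKO samples, with the mean and SD, on linear axes from 0. Zdbf2, Mest, Igf2 and Asb4 lie lower in cKO, Ndn and Cdkn1c lie higher, and the groups of H19 and Peg3 overlap.

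The remaining tested members were not called. Mcts2 and Zrsr1 are retrogenes, copies made from messenger RNA, that sit in introns of H13 and Commd1. Their log2 fold changes were -0.03 (SE 0.05) and -0.04 (SE 0.05), and those of the host genes were 0.03 (SE 0.03) for H13, a signal peptide peptidase gene, and -0.12 (SE 0.06) for Commd1. The parent copies of the retrogenes, Mcts1 (-0.007, SE 0.04) and Zrsr2 (0.03, SE 0.05), were not called either, and 0% of the 75-base windows of Mcts2 occur in any other gene. Plagl1, a zinc finger gene read from the paternal copy, was at 37.2 ± 0.872 CPM and 37.0 ± 2.91 CPM (log2 fold change -0.003, SE 0.05, edgeR adjusted p = 0.981). The noncoding Peg13 (0.11, SE 0.06) and its host Trappc9 (-0.07, SE 0.05) had adjusted p of 0.299 and 0.406 in edgeR's test. Kcnk9, a potassium channel gene, and Rasgrf1, an exchange factor of Ras, had 0 to 3 and 0 to 4 counts per sample and were not tested.

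Imprinted genes that are not members also went both ways. Of 45 listed, 43 were in the files and 33 were tested, and 9 were called higher and 4 lower, with a median log2 fold change of 0.04. The largest rises, besides B830012L14Rik, were those of the serotonin receptor gene Htr2a (1.36, SE 0.08, edgeR adjusted p = 1.71e-08), the matrix gene Dcn (1.10, SE 0.16) and the protease inhibitor gene Tfpi2 (0.60, SE 0.13). Dcn is also an abundant product of fibroblasts. Atp10a (0.43), Jade1 (0.39), Qpct (0.38) and Smoc1 (0.35) rose less, and Herc3 fell by 0.32 on the log2 scale. The other 3 genes called lower had log2 fold changes of -0.26 to -0.14. Many of them are imprinted only in placenta or brain.

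Genes whose products keep or read imprints were examined beside them. Of 36 such genes 34 were tested, 1 was called higher and 6 lower, with a median log2 fold change of -0.08. Zfp57, the zinc finger protein that binds methylated imprinting control regions, lay at 17.6 to 18.7 CPM in control and rose to 21.1 to 22.9 CPM in cKO (log2 fold change 0.28, SE 0.05, edgeR adjusted p = 0.000713). The insulator gene Ctcf had a log2 fold change of -0.16 (SE 0.03), the cohesin gene Rad21 -0.19 (SE 0.04), Tet2, an enzyme that oxidises methylated cytosine, -0.22 (SE 0.04), and the heterochromatin gene Cbx5 -0.17 (SE 0.03). Smchd1 (-0.10, SE 0.03) and Nsd1 (-0.12, SE 0.04) were also called lower. The other 27 were not called, among them the maintenance methyltransferase gene Dnmt1, named after its value was seen (-0.08, SE 0.03, edgeR adjusted p = 0.11). Over all 19 loci, 203 tested neighbours not listed as imprinted lay within 500 kb, of which 11.3% were called higher and 7.39% lower.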

How the data were processed

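The 6 deposited tables hold raw counts per gene, which the authors made by aligning reads to mm10 with Bowtie2 2.3.4.2 and counting with featureCounts 1.6.3. Bowtie2 does not split reads over introns, so reads over exon junctions are lost or placed elsewhere. The strand setting, the annotation and the handling of reads with several matches are not given in the sources used here. The authors also deposited counts scaled by size factors and a table of their own DESeq2 comparison with fold changes and p-values, and neither was used. All 55536 gene identifiers were matched to GENCODE M21 for symbols, coordinates and exonic length.

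Genes were filtered with filterByExpr, scaled by TMM and tested with edgeR 4.0.16 in R 4.3.3 (quasi-likelihood, genotype as the only term, adjusted p under 0.05). Tested on simulated counts for this comparison over 22131 genes with 200 changed, this recovered 98.5% of them with 3.9% false calls. Both rates describe those counts only. Whether they hold for called members with small fold changes or low counts was not tested. Replicates varied by a common biological coefficient of variation of 3.92%, and counting error adds to it for low counts. No replicates held the same library. A 95% interval of a log2 fold change is the estimate with 1.96 SE on either side. Shared sequence was measured as exact windows of 75 bases. Alternatives were DESeq2 1.42.0, RLE factors, total counts, no filter, a replicate block, a stricter threshold and leaving out each sample. The settings were applied to Hira and to the lists of other genes only after seeing the data. Figures used matplotlib with Python.

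The members, loci, parental classes and lists come from general knowledge and were chosen with earlier results of these data known, among them the rise of the Dlk1-Dio3 genes, which is therefore not independent support. Every member is named. Called members are given with counts, levels and tests, and of the other lists called genes are named, at most 10 per list by size of change. Parental classes and loci are described by counts and medians, with no test.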

Additional observations from a re-analysis of the deposited data

How the results depend on the processing

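Of the 19 called members, 12 kept their direction and call under all 12 alternatives and none reversed. Those 12 were Dlk1, Meg3, Rtl1, Rian, Mirg, Nnat, Ndn, Cdkn1c, Blcap, Zdbf2, Igf2 and Mest. Slc38a4, Grb10, Kcnq1ot1, Impact, Asb4, Ddc and Gnas each lost the call at least once, and Usp29, Peg10, Commd1 and Cd81 gained it in 1 or 2 fits. The members called higher numbered 9 to 11 and those called lower 4 to 9 over all settings. With each sample left out in turn they were 9 to 10 higher and 4 to 8 lower. The fewest lower calls, 4, came without control replicate 3, and 5 came without control replicate 1, control replicate 2 or cKO replicate 3. An adjusted p under 0.01 left 10 higher and 4 lower. Scaling by total counts gave 11 higher and 5 lower, and moved the medians to 0.0216 for all tested members, 0.0202 for paternal and 0.0677 for maternal genes, as it moved the median of all tested genes to 0.0234. With samples left out, the median was -0.00968 to 0.00286 for all members, -0.0217 to 0.0105 for paternal genes, 0.0324 to 0.0547 for maternal genes and 1.41 to 1.51 for the Dlk1-Dio3 genes. The cause of these moves was not tested.

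The labels give both groups replicate numbers 1 to 3, but same-numbered samples did not deviate together (correlations of -0.05, -0.03 and -0.02). These values show no pairing by number, but they cannot exclude that samples were handled in pairs. A replicate block gave 10 genes called higher and 7 lower and a Dlk1-Dio3 median of 1.49, with Slc38a4 and Grb10 lost. Among other genes named, Nespas and Smchd1 lost their call under 7 settings each and Nsd1 under 8, Smoc1 under 4 and Qpct under 3. DESeq2 called neither Smoc1 nor Qpct, and with it 6 imprinted genes that are not members were called higher in place of 9. Without cKO replicate 2, 10 genes that keep or read imprints were called lower in place of 6.

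Depth limits Dlk1 and Dio3, at 21 to 95 counts per sample, and leaves Phlda2, Slc22a18, Kcnq1, Kcnk9, Rasgrf1 and Magel2 untested, for which a difference was not detectable at this depth. Intervals and spreads between samples do not cover reads that the counting gave to an overlapping gene, as for Igf2 and Snurf. No allele was read, so the parental origin of any change was not analysed here.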
